A study of Nasturtium officinale with 24 samples.

Results

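The late risers of watercress are 80 transcript contigs whose excess under water over air was larger after 2 days than after 1 day, in petioles and in stems alike. They were chosen from 80741 contigs by their measured values. Counts were scaled to CPM, counts per 1000000 counts of the library, and averaged over the libraries of a group, and the response was log2((CPM under water + 1)/(CPM in air + 1)). The rule asked for a mean of at least 4 CPM over the 8 groups, a response of at least 0.8 in both tissues at 2 days, and responses at 2 days that differed by under 2 between the tissues. Of the 25997 contigs that met the first condition, 2384 met the others too. These are called the 2-day risers below. The 80 among them with the highest late rise, meaning the response at 2 days minus that at 1 day in whichever tissue had less, are the late risers. The pseudocount of 1 makes every response of a low contig smaller than its ratio of CPM.

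Watercress (Nasturtium officinale) is a semi-aquatic relative of cabbage, and the series is about the elongation of its stems under water. Plants about 3 weeks old, grown at 23 °C in short days of 8 h light and 16 h darkness, were put completely under water or stayed in air, and stems and petioles (leaf stalks) were taken after 1 day and after 2 days. This gave 8 groups: petioles in air at 1 day and at 2 days, petioles under water at 1 day and at 2 days, and the same 4 for stems. Each group has 3 libraries and each library pools 5 plants, so the spread between libraries is that between pools. Totals lay between 17617430 and 48928331 estimated counts per library.

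Under water, gas moves slowly into and out of plant tissue, so ethylene builds up inside it and oxygen can run short. In plants that escape from floods, ethylene, abscisic acid and gibberellin together control the growth of stems and petioles. Sugars run down as photosynthesis falls. Some responses start within hours and others only after a longer stay, and no cause of the timing was tested here. The files do not pair the contigs with genes, so no late riser can be given a gene name or a role here. The contigs are described by identifier, length and values. In pooled tissue, fewer cells of a type and less RNA per cell cannot be told apart.

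Taken by their medians, the 80 late risers stood nearer to their air level at 1 day than at 2 days, though single contigs ranged from below air to far above it at 1 day. Their median level on the log2(CPM + 1) scale was 2.39 to 3.05 in the 3 libraries of petioles in air at 1 day and 1.99 to 2.19 in air at 2 days. Under water it was 3.01 to 3.20 at 1 day and 3.95 to 4.40 at 2 days. The 3 libraries of petioles under water at 2 days were therefore above all 9 other petiole libraries. In stems the same median was 2.35 to 2.85 in air at 1 day, 2.07 to 2.38 in air at 2 days, 2.32 to 2.85 under water at 1 day and 3.84 to 4.09 under water at 2 days. In both tissues the 1-day libraries under water overlapped with those in air of that day. Over the 2-day risers, replicate 1 of the petioles submerged for 1 day had a lower median level, 4.35, than the 4.64 and 4.72 of the other two libraries of its group. Without it the median late rise of the 80 in petioles, 1.45 over all libraries, was 1.49.

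The median response of the late risers was 0.45 at 1 day and 1.86 at 2 days in petioles, and -0.02 and 1.51 in stems. The median late rise was 1.45 in petioles (range 1.04 to 5.00) and 1.44 in stems (range 1.03 to 4.32). These values chose the contigs and are a description. Over the 2384 2-day risers the median late rise was 0.17 in petioles and 0.24 in stems. Most 2-day risers were already up at 1 day, with a median response of 1.37 in petioles and 1.05 in stems. Scaling matters in stems. Over the 25997 contigs that met the level condition the median late rise was 0.15 in stems with plain totals and -0.03 with TMM factors, and the same 80 contigs then had a median of 1.25 in stems and 1.44 in petioles. The last contigs taken, GEMC01020260.1 and GEMC01067830.1, had a smaller late rise of 1.03 each, and that of GEMC01067830.1 in petioles, 1.16, was 0.67 without replicate 3 of air at 2 days. The first contigs left out, GEMC01046010.1 and GEMC01021880.1, had 1.02 each, so the limit falls in a continuum.

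**Figure D1:**
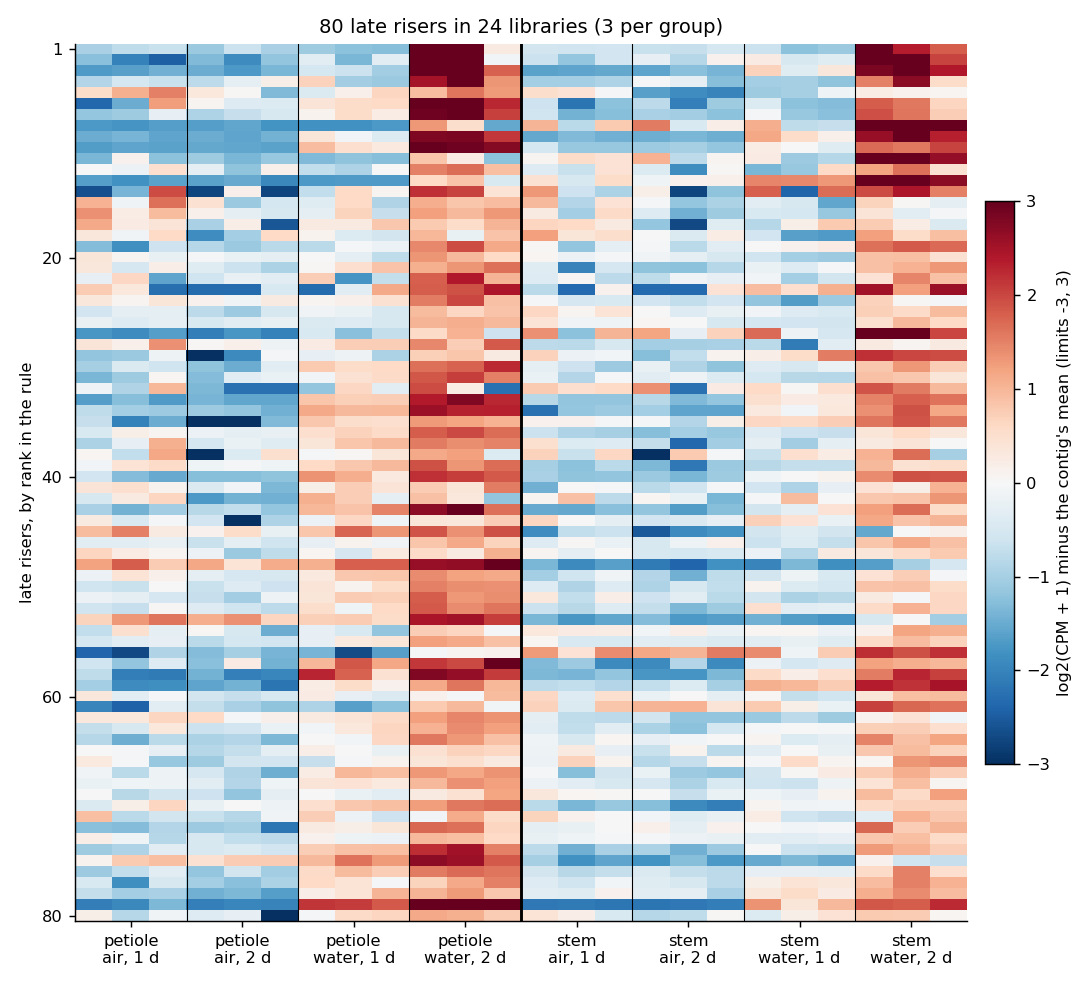
Level of the 80 late risers (rows, by rank in the rule) in the 24 libraries (columns, 3 per group), as log2(CPM + 1) minus the contig's own mean, with red above and blue below it. The 3 columns of each tissue under water at 2 days are the reddest of that tissue, and in petioles the third of them is paler than the other two for many of the first rows.

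**Figure D2:**
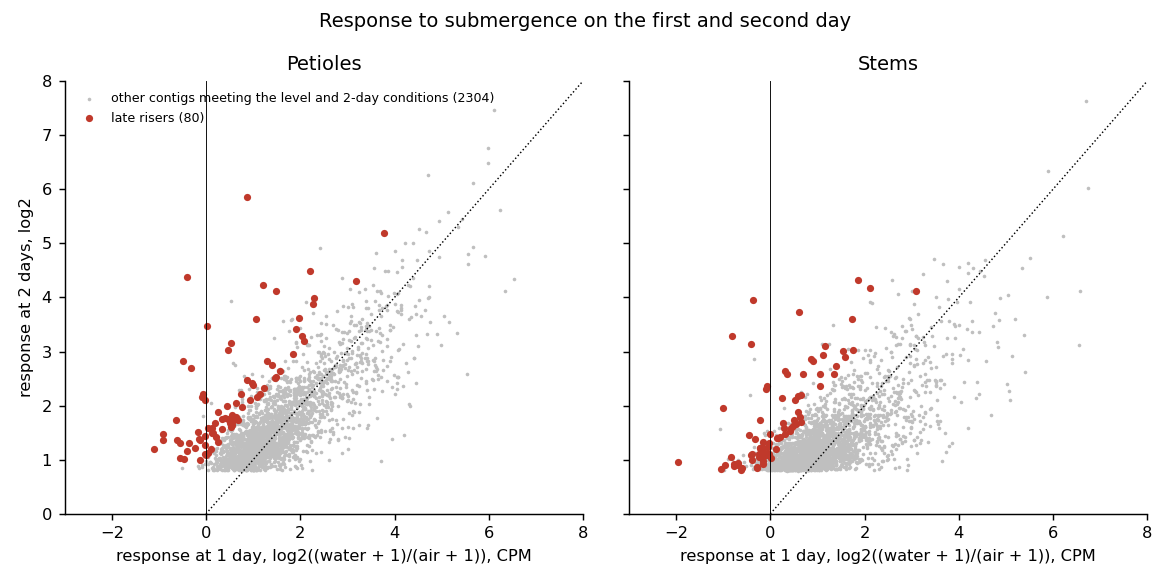
Response to submergence at 1 day (x axis) and at 2 days (y axis), both log2((CPM under water + 1)/(CPM in air + 1)), in petioles and in stems, for the 80 late risers (red) and the other 2-day risers (grey). The dotted line marks equal responses, and all 80 late risers lie above it by at least 1.03 because the rule chose them so.

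Some late risers rose from almost nothing. GEMC01044819.1 (1798 bases) had the largest late rise in petioles, 5.00. Its petiole libraries held 0.0568, 0.113 and 0.26 CPM in air at 1 day, 0.22, 0.0404 and 0.332 CPM in air at 2 days, 1.39, 1.19 and 0.656 CPM under water at 1 day and 132, 62.7 and 10.7 CPM under water at 2 days. Every step under water was thus free of overlap, although the 2-day libraries spread widely. In stems it went from 4.52, 1.65 and 3.36 CPM at 1 day to 23.4, 33.5 and 17.1 CPM at 2 days under water, and no library in air exceeded 0.432 CPM. Of the 80 late risers, 7 stayed under a mean of 1 CPM in both 2-day air groups.

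GEMC01037709.1 (1159 bases) had the highest rank in the rule. In petioles under water it moved from 0.2, 0.0775 and 0.0348 CPM to 57.5, 22 and 2.02 CPM between the days. The 1-day values rest on 7, 2 and 1 counts, and lay below the 0.291, 0.494 and 0.582 CPM of the libraries in air (5, 13 and 11 counts). In stems it went from 0.619, 0.0639 and 0.161 CPM to 20.4, 11.8 and 7.92 CPM under water, beside 0.545 to 0.758 CPM in air at both days. The 1-day libraries under water were all below those in air of that day in both tissues, and the 2-day libraries all above.

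The largest late rises in stems belonged to GEMC01028823.1 (872 bases) and GEMC01034209.1 (896 bases), with 4.32 and 4.10. GEMC01028823.1 stood in stems at 6.37, 1.09 and 5.28 CPM in air at 1 day, 9.69, 1.67 and 3.16 CPM in air at 2 days, 6.83, 1.14 and 1.25 CPM under water at 1 day and 148, 81.6 and 39.9 CPM under water at 2 days. Only the last group stood apart. In petioles it reached 7.94, 4.24 and 0.251 CPM under water at 2 days, from at most 0.243 CPM in the other petiole groups, so the third library hardly left the level of the rest. GEMC01034209.1 went from 2.04, 0.222 and 0.42 to 46.6, 28.4 and 14.9 CPM in stems under water, and to 3.56, 2.07 and 0.102 CPM in petioles at 2 days. These contigs also had the most negative difference between the tissues at 2 days, with responses smaller in petioles by 1.80 and 1.93.

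Replicate 3 was the lowest library for many of these contigs, in both tissues. For 47 of the 80 late risers the lowest library of petioles under water at 2 days was replicate 3, beside 27.6% of the 25997 contigs that met the level condition. For 44 the lowest library of stems under water at 2 days was replicate 3, beside 37.1%. Both held for 31 contigs, or 38.8%, against 13.0% of the 25997. Among the first 20 contigs by rank, a group chosen after the values were seen, both held for 13. The rule used the means of these groups, so contigs high in replicates 1 and 2 could enter the list through them. Nothing is read from these shares. GEMC01037685.1 (1926 bases) is an example. Under water at 2 days its petioles held 76.8, 96.6 and 7.32 CPM, and its stems 169, 83.9 and 35.2 CPM. Its 1-day libraries under water held 6.06, 2.38 and 5.97 CPM (petioles) or 9.44, 5.35 and 5.89 CPM (stems), so that replicate 3 had risen in stems but barely in petioles. Why replicate 3 was often the lowest for these contigs was not tested. Leaving replicate 3 out of the submerged petioles of the second day, the median late rise of the 80 in petioles was 1.46, and 75 of them kept a late rise of at least 1 there.

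The late risers differed in where they stood after 1 day. By group means, 37 were above air in both tissues at 1 day, 23 were below air in both, 18 were above in petioles and below in stems, and 2 the reverse. In petioles 35 had a response within 0.5 of 0 at 1 day, 26 had already reached 0.8 and 7 were at -0.5 or lower. In stems these numbers were 44, 15 and 12. Of the 25997 contigs that met the level condition, 36.1% were above air in both tissues at 1 day and 42.6% below in both. Another 16.9% were above in petioles and below in stems, and 4.33% the reverse. In petioles 60.7% were within 0.5 of 0, 13.3% had reached 0.8 and 17.0% were at -0.5 or lower. In stems these shares were 63.8%, 8.70% and 21.8%. Of the 2384 2-day risers, 1.09% were below air in both tissues at 1 day. Among these the rule favours such contigs, and nothing is read from the differences.

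The mean under water was higher at 2 days than at 1 day for 79 late risers in petioles and all 80 in stems. Of the 25997 contigs that met the level condition this held for 51.3% and 64.3%. The rule favours such contigs, so nothing is read from the difference. Of the 37 contigs above air in both tissues at 1 day, all but 1 had a higher mean under water at 2 days than at 1 day in both tissues. The exception, GEMC01069256.1 (6624 bases), was picked out after its values were seen. In petioles under water it moved from 14.6, 11.4 and 5.18 CPM to 12.7, 8.22 and 2.29 CPM, and in air from 4.31, 7.92 and 10.6 CPM to 1.25, 1.76 and 1.72 CPM. Its late rise in petioles of 1.36 therefore lay in the air libraries. GEMC01020260.1 (236 bases) had responses at 1 day of 3.79 in petioles and 3.09 in stems, the highest among the late risers. Its petiole libraries in air held at most 0.937 CPM, and those under water moved from 20.7, 20.3 and 16.8 CPM to 45.3, 43.8 and 41.7 CPM between the days. In stems it went from 11.5, 5.35 and 8.76 to 17.1, 16.3 and 22.4 CPM under water, beside at most 0.171 CPM in air. Within each tissue the days did not overlap under water. GEMC01013295.1 (436 bases) came next by the mean of the responses in petioles and stems, with 24.2, 16.7 and 6.12 CPM at 1 day and 34.3, 31.1 and 21.2 CPM at 2 days in petioles under water. These groups overlapped, and without replicate 1 of petioles in air at 1 day its late rise in petioles was 0.53 in place of 1.12.

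Others dipped before they rose. GEMC01019658.1 (4126 bases) had the lowest response at 1 day in stems, -1.96, with 13.5, 6.9 and 7.86 CPM in air and 3.16, 0.986 and 0.905 CPM under water. At 2 days its stem libraries held 5.2, 3.6 and 6.21 CPM in air and 13.5, 8.06 and 10.5 CPM under water. All libraries under water were thus below air at 1 day and above air at 2 days. In petioles its groups overlapped at both days, and without replicate 3 of air at 2 days its late rise there was 2.58 in place of 1.59. For GEMC01041395.1 (1264 bases), with responses of -1.11 in petioles and -1.05 in stems at 1 day, the libraries varied too widely for such a statement, with 8.2, 3.08 and 13 CPM in air and 2.47, 5.82 and 1.42 CPM under water in petioles at 1 day.

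Counted over all late risers, the stem libraries under water lay all below those in air at 1 day and all above at 2 days for 9 contigs, beside 1.27% of the 25997 contigs that met the level condition. In petioles this held for 2 contigs, beside 0.273%. At 1 day alone, all libraries under water were above all in air for 29 late risers in petioles (25.6% of the 25997) and for 23 in stems (19.9%), and below for 2 (15.7%) and 10 (33%). At 2 days they were above for 75 in petioles (31.7%) and 73 in stems (30.5%). The rule used these contrasts, so the counts describe the list and no more. The same holds for edgeR's calls (quasi-likelihood test, Benjamini-Hochberg adjusted p under 0.05 over 53919 contigs). In petioles 24 late risers were called higher under water at 1 day (13.5% of all contigs tested) and none lower (10.8%), and 71 were called higher at 2 days (16.3%). In stems 13 were called higher (9.99%) and 5 lower (9.09%) at 1 day, and 60 higher at 2 days (10.4%).

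Most of the late rise came from the libraries under water, and part of it from a decline in air. Between 1 and 2 days the late risers changed under water by a median of 1.07 in petioles and 1.16 in stems on the log2(CPM + 1) scale. In air they changed by -0.26 and -0.22. In 63 contigs in petioles and 61 in stems the mean level was higher under water and lower in air at 2 days than at 1 day, beside 24.7% and 42.0% of the 25997 contigs that met the level condition. The fall in air made up 0.5 or more of the late rise in 16 contigs in petioles and 8 in stems. In 59 of the 80 late risers every library under water at 2 days was above every library under water at 1 day in both tissues, beside 8.64% of the 25997 contigs. For 57 of them, beside 4.59%, the 2-day libraries under water were also above all 2-day libraries in air. The late rise that ranked the contigs is the change under water minus the change in air, in these same libraries. The counts therefore describe the list and no more.

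Within the air libraries, replicate 3 of petioles in air at 1 day had a median of 3.05 for the late risers, above the 2.47 and 2.39 of the other two. Without it 62 of the 80 contigs kept a late rise of at least 1 in petioles, and the median change in air there was -0.22. Leaving out each of the other petiole libraries in air gave -0.32 to -0.28, and leaving out each stem library in air gave -0.31 to -0.16 in stems. All libraries in air at 2 days lay below all at 1 day for 14 late risers in petioles (3.82% of the 25997) and for 12 in stems (7.19%), and above for none in either tissue (4% and 1.87%). A fall in air between the days raises the late rise, so the rule favours such contigs. Nothing is read from these differences.

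**Figure D3:**
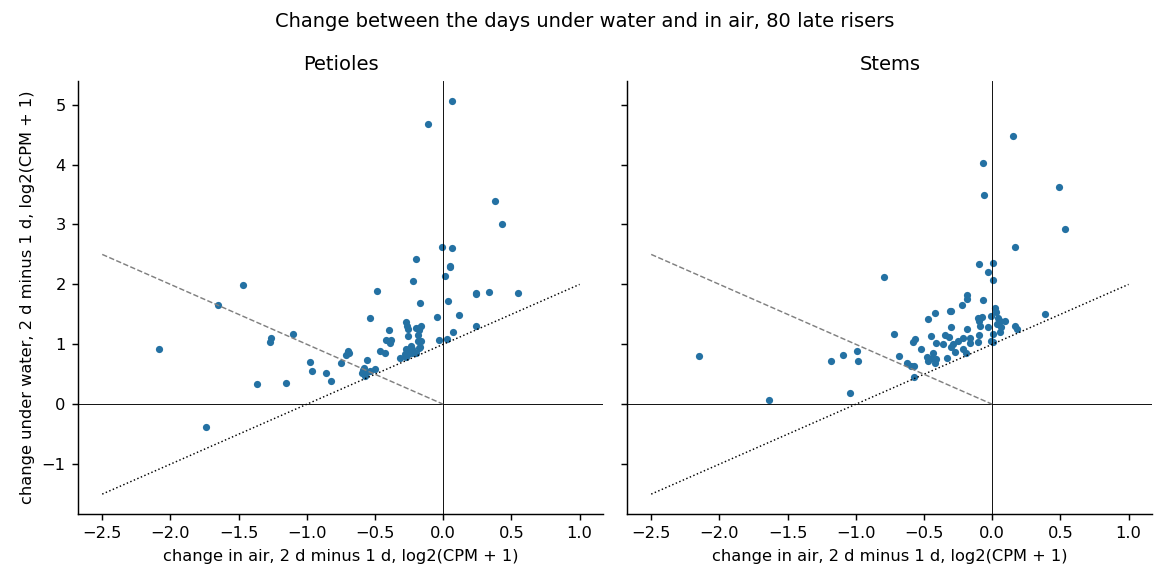
Change from 1 day to 2 days in air (x axis) and under water (y axis) for the 80 late risers, each in log2(CPM + 1) of group means, in petioles and in stems. Points above the dotted line have a late rise over 1, points above the dashed grey line owe more of it to the rise under water than to the fall in air, and 64 of 80 points in petioles and 72 of 80 in stems lie above the dashed line or to the right of it.

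The contigs with the largest fall in air were GEMC01054910.1 (1709 bases) and GEMC01053645.1 (1809 bases). GEMC01054910.1 went in stems from 6.39, 5.94 and 4.03 CPM in air at 1 day to 0.663, 0.412 and 0.3 CPM at 2 days. Under water its stems held 1.45, 1.59 and 3.67 CPM and then 4.98, 4.59 and 4.4 CPM. The 2-day level under water was therefore about that of air at 1 day, and the groups in air did not overlap. GEMC01053645.1 changed little under water in stems, from 2.59, 6.37 and 10.3 to 10.1, 6.61 and 3.84 CPM, while air went from 9.26, 8.83 and 6.88 to 1.94, 0 and 4.06 CPM. Its late rise in stems of 1.71 therefore lay in the air libraries. It was 1.30 without replicate 2 of air at 2 days and 2.32 without replicate 3.

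The contigs with the largest rise in air were GEMC01059507.1 (723 bases) and GEMC01037685.1. GEMC01059507.1 stood in petioles at 1.68 to 2.44 CPM (1 day) and 1.84, 3.03 and 4.6 CPM (2 days) in air, and under water at 7, 1.4 and 1.3 CPM and then 27, 60.4 and 11.3 CPM. The air groups overlapped and the water groups did not. In stems under water it went from 1.45, 1.46 and 1.12 to 13, 31.2 and 6.17 CPM, with replicate 2 the highest in both tissues.

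For a smaller set of late risers the late rise was large against the spread in the fit. The time by treatment interaction, fitted over all contigs with the same test, was called as higher at 2 days for 5 late risers in petioles, where 0.111% of the 53919 contigs tested were called, and for 5 in stems, where 0.0872% were called. None was called as lower at 2 days, beside 0.0872% of contigs in petioles and 0.0445% in stems. All 80 late risers passed the low-count filter. Since the rule ranks contigs by this very difference, the calls describe how far the late rise exceeded the spread between libraries and support nothing more. Together they named 7 of the 80 late risers, and the others had no such call in either tissue. For those the fit did not tell the late rise from the spread between libraries at this threshold. The 7 contigs were chosen after their values were seen, and 3 of them were called in both tissues: GEMC01012203.1, GEMC01026149.1 and GEMC01041087.1.

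GEMC01012203.1 held 21.4, 19.1 and 20.2 CPM in petioles in air at 1 day, 18.1, 19.5 and 21.2 CPM in air at 2 days, 18.3, 18.9 and 17.8 CPM under water at 1 day and 51.7, 54.7 and 50 CPM under water at 2 days. A single group stood apart. In stems it went from 17, 16.6 and 16.8 CPM under water at 1 day to 35.7, 50.5 and 38.3 CPM at 2 days, with 17.9 to 33.7 CPM over the 6 libraries in air. Its 1-day libraries under water were thus below all 6, and its 2-day libraries above all 6.

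GEMC01026149.1 went under water from 9.23, 8.65 and 6.9 to 20.3, 16 and 19 CPM in petioles and from 9.48, 7.49 and 7 to 17, 15.5 and 20.2 CPM in stems. GEMC01041087.1 went from 9.11, 7.11 and 4.87 to 23.9, 18.6 and 14 CPM in petioles and from 5.58, 3.92 and 3.7 to 17.5, 17.7 and 12.7 CPM in stems. For both contigs the days did not overlap under water in either tissue. In air GEMC01026149.1 held 16, 10.7 and 13.6 CPM in stems at 1 day and 10, 7.43 and 8.51 CPM at 2 days. Its late rise in stems thus held a fall in air, and its 2-day libraries under water overlapped with air at 1 day. In petioles in air it held 4.19 to 8.07 CPM over both days. GEMC01041087.1 held 7.15 to 11.9 CPM in petioles and 6.22 to 9.42 CPM in stems in air over both days. GEMC01037709.1 and GEMC01032320.1 were the other two called in petioles, and GEMC01054910.1 and GEMC01024455.1 the other two in stems. GEMC01032320.1 went under water in petioles from 12.9, 15.1 and 13.9 to 33.7, 38.2 and 30.7 CPM, beside 6.21 to 10.2 CPM in air.

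The rule was also applied to 2 of the 3 replicate numbers, and the chosen 80 contigs were read in the third. The late rise was smaller there but mostly present. The rule itself was set with earlier results of all replicates known, so the third was not wholly free of the choice. The values are a description. With replicate 1 left out, the median late rise was 1.52 in petioles and 1.502 in stems in the libraries that chose the contigs, and 1.15 and 1.08 in replicate 1. With replicate 2 left out it was 1.46 and 1.52 in the choosing libraries, and 1.01 and 1.09 in replicate 2. With replicate 3 left out it was 1.62 and 1.68, and then 1.102 and 1.02 in replicate 3.

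In the replicate left out, the late rise was above 0 in both tissues for 65, 62 and 59 of the 80 contigs when replicate 1, 2 or 3 was the one left out. Among the 2-day risers chosen by the same 2 replicates it was above 0 in both tissues for 48.2%, 40.1% and 43.0%. Among all contigs that met the level condition in those replicates the shares were 36.2%, 35.2% and 41.8%. The contigs were read in the same libraries and are not replicates of each other, so the counts describe the lists and no more. The lists so chosen shared 51, 52 and 46 contigs with the 80 late risers. The membership of single contigs thus depended on which replicates chose them.

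**Figure D4:**
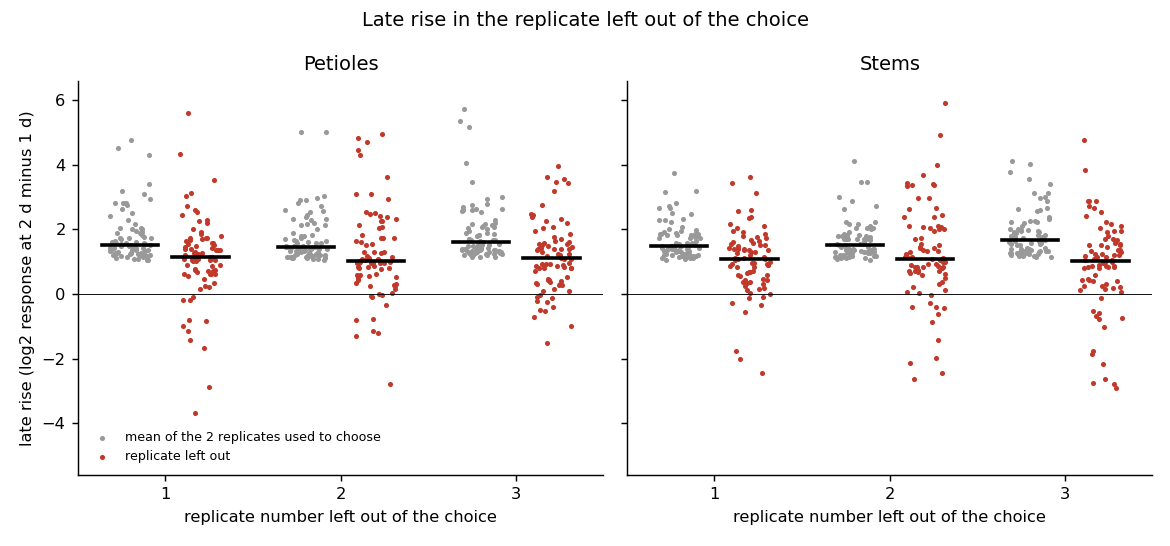
Late rise (response at 2 days minus response at 1 day, log2) of 80 contigs chosen without one replicate number, in the 2 replicates that chose them (grey) and in the replicate left out (red), in petioles and stems, with black bars for medians. The red medians lie between 1.01 and 1.15, below the grey ones at 1.46 to 1.68, and most red points are above 0.

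The late risers ranged widely in abundance. Per length, as transcripts per 1000000 transcripts (TPM) averaged over both tissues under water at 2 days, they had a median of 12.1 and ran from 1.31 to 1168 TPM, and the 2-day risers had a median of 19.2 TPM. GEMC01024245.1 (628 bases) was the most abundant with 1168 TPM, followed by GEMC01038977.1 (418 bases) with 370.0 TPM. In stems GEMC01024245.1 held 606, 338 and 668 CPM in air at 1 day, 559, 510 and 738 CPM in air at 2 days, 665, 231 and 427 CPM under water at 1 day and 1167, 944 and 1148 CPM under water at 2 days. The first 3 groups overlapped and the last stood above them. In petioles it was at 94.3, 37.9 and 80.7 CPM and then at 243, 264 and 275 CPM under water. Air at 1 day held 47.5, 37.2 and 133 CPM there, and without the library at 133 CPM the late rise in petioles was 0.55 in place of 1.31.

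GEMC01038977.1 rose in smaller steps. Its petioles under water went from 49.7, 69.3 and 88.3 to 103, 122 and 154 CPM, and its stems from 42.4, 36.7 and 47.3 to 90.2, 101 and 121 CPM. In air it fell in petioles from 61.7, 33.7 and 56.2 to 37.4, 30.5 and 24.8 CPM, with overlap between the days.

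The comparison of stem with petiole does not enter the rule as such and was tested, though it uses the same libraries as the responses that the rule used. In air, averaged over both days, 14 late risers were higher and 17 were lower in stems than in petioles (edgeR quasi-likelihood test, adjusted p under 0.05 over all contigs). Of all 53919 contigs tested, 10% were higher and 9.69% lower, and of the 2-day risers 12.5% and 20.8%. The median log2 difference of the late risers was -0.02, beside 0.07 over all contigs tested, and its sign changed to 0.18 with plain library totals. Calls in the opposite directions were thus close in number in air, with single members far apart.

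Under water, averaged over both days, 7 late risers were higher and 37 lower in stems than in petioles. Of all contigs tested 13.6% were higher and 13.9% lower. The 37 contigs are 46.3% of the late risers, beside 38.9% of the 2-day risers that were lower in stems and 6.88% that were higher. The median log2 difference was -0.58 for the late risers, -0.36 for the 2-day risers and -0.01 over all contigs tested. Among the 2-day risers too, far more contigs were lower than higher in stems under water. Apart from scaling and pseudocount, the difference under water is that in air plus the difference between the tissue responses. The rule chose on those responses and bounds their difference at 2 days, so this comparison is not free of it. In the late risers the response was larger in petioles by a median of 0.35 at 1 day and 0.44 at 2 days. For the 2-day risers these medians were 0.32 and 0.25. The calls and p-values under water are therefore a description.

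GEMC01035144.1 (1200 bases) was the contig most in favour of petioles. In air it stood at 19.2, 29.6 and 13.8 CPM and at 18.6, 10.7 and 17.7 CPM in petioles at 1 and 2 days, against 2.34, 1.32 and 1.83 CPM and 1, 0.666 and 1.46 CPM in stems. Under water petioles held 17.3, 29 and 29.3 CPM and then 52.4, 53.7 and 76 CPM, and stems 1.22, 2.42 and 1.45 CPM and then 1.75, 3.37 and 5.18 CPM. All petiole libraries were above all stem libraries. The log2 difference of stem against petiole was -3.87 ± 0.30 in air (SE; edgeR, adjusted p = 2.9e-08) and -4.12 ± 0.30 under water (edgeR adjusted p = 1.52e-08). In stems its 1-day and 2-day libraries under water overlapped.

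GEMC01048174.1 (1055 bases) was likewise lower in stems in air, at 2.18 to 3.35 CPM over 6 libraries against 15.7 to 31.5 CPM in petioles, a log2 difference of -3.31 ± 0.22 (SE; edgeR, adjusted p = 6.13e-09). It rose under water from 16.6, 17.1 and 14.8 to 57.7, 61 and 44.2 CPM in petioles and from 2.95, 2.37 and 2.16 to 6.71, 9.56 and 4.24 CPM in stems. The days did not overlap in either tissue. GEMC01052734.1 (1000 bases) was lower in stems under water by -3.23 ± 0.24 (SE; edgeR, adjusted p = 1.75e-08). At 2 days its petioles held 53.4, 49 and 29.5 CPM, and its stems 8.21, 4.57 and 4.25 CPM.

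In the other direction, GEMC01012329.1 (1662 bases) was higher in stems under water by 4.04 ± 0.33 (SE; edgeR, adjusted p = 5.02e-08). Its stem libraries under water held 10, 9.95 and 8.99 CPM at 1 day and 44, 35.7 and 25.3 CPM at 2 days, and its petiole libraries 0.227, 0.23 and 0.242 CPM and then 5.09, 6.27 and 1.96 CPM. It had thus risen above air in stems at 1 day, where air held 4.5, 1.9 and 4.87 CPM, and not in petioles, where air held 0.284, 0.151 and 0.312 CPM.

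GEMC01028823.1 was higher in stems by 4.84 ± 0.89 in air (SE; edgeR, adjusted p = 0.000535) and by 4.96 ± 0.80 under water (edgeR adjusted p = 0.000117), and the call in air ended under limma-voom (adjusted p = 0.109). Its petiole libraries in air held 1 to 6 counts each, near the floor of 3, so the size of the difference in air rests on few reads. GEMC01036907.1 (751 bases) was higher in stems in air by 4.82 ± 0.74 (SE; edgeR, adjusted p = 8.25e-05), with limma-voom giving an adjusted p of 0.0574. Its stem libraries in air held 10.3, 0.865 and 7.83 CPM and 8.92, 2.68 and 5.96 CPM, and its petiole libraries at most 0.374 CPM, from 1 to 7 counts each. The stem libraries were all above the petiole libraries.

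The tissue difference was called in both treatments for 25 late risers, in air alone for 6, under water alone for 19 and in neither for 30. Over all contigs tested the shares were 13.3%, 6.42%, 14.2% and 66%, and over the 2-day risers 24.3%, 8.93%, 21.5% and 45.3%. Of the 25, 7 were higher and 16 lower in stems in both treatments, beside 5.97% and 7.05% of all contigs tested and 4.82% and 18.4% of the 2-day risers. The other two turned, beside 0.265% and 1.09%, and one of them was GEMC01024455.1 (761 bases). In air its stem libraries held 1.23, 0.457 and 0.451 CPM at 1 day and 0.5, 0.594 and 0.432 CPM at 2 days, while the 6 petiole libraries had 0 to 3 counts each. Under water petioles held 5.1, 3.49 and 2.93 CPM and then 25.7, 23 and 20.4 CPM, above stems with 2.74, 2.15 and 1.47 CPM and then 9.33, 8.58 and 12.1 CPM. The other was GEMC01046619.1, named after its values were seen, with log2 differences of 0.82 in air and -0.81 under water. GEMC01024455.1 also had the highest response of petioles over stems at 2 days, by 1.61 on the log2(CPM + 1) scale.

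**Figure D5:**
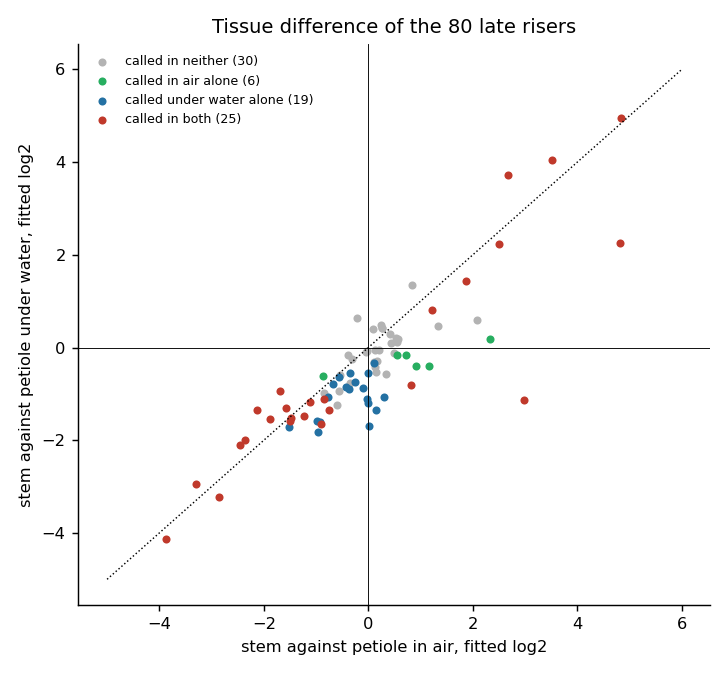
Fitted log2 difference of stem against petiole for the 80 late risers, in air (x axis) and under water (y axis), each averaged over both days, coloured by where edgeR called it at an adjusted p under 0.05. The dotted line marks equal differences, and most points lie near it or below it, with the contig at 2.97 in air and -1.13 under water farthest below.

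GEMC01017935.1 (2676 bases) came second by that measure with 1.59, on uneven values. Its petiole libraries under water at 2 days held 17.4, 4.54 and 0 CPM, and those in air 0.874, 0 and 0 CPM. Without the library at 17.4 CPM its late rise in petioles was 1.65 in place of 3.00. In stems it was 1.33, and 0.82 without replicate 2 of air at 2 days or 2.26 without replicate 1. In 11 late risers, or 13.8%, a group held both a library with under 3 counts and one with at least 50. This held for 3.52% of the 2-day risers and 2.40% of the contigs that met the level condition. Such a split moves a group mean that the rule used, so the rule can favour these contigs. Nothing is read from the difference. Reads that fit several contigs are divided between them by the counting tool, and its part in these values was not tested. In 11 late risers (13.8%) the estimated counts were whole in every library within 1e-06, and in 14.0% of the 2-day risers.

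Some late risers were neighbours by identifier. In 5 pairs the identifier numbers differed by at most 5. GEMC01034075.1 and GEMC01034076.1 had late rises of 2.55 and 2.62 in petioles and 2.24 and 2.35 in stems. GEMC01041394.1 and GEMC01041395.1 had 2.27 and 2.31 in petioles and 1.70 and 1.88 in stems. For GEMC01037685.1 and GEMC01037686.1 the values differed more, with 3.02 and 1.06 in petioles and 3.13 and 1.55 in stems. Whether such contigs are parts or copies of the same gene is not given in the files, so the 80 contigs may not be 80 genes. The late risers were about as long as other contigs, with a median of 1334 bases beside 1331 for the 2-day risers and 1399 for the contigs that met the level condition.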

How the data were processed

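RNA was sequenced from 24 libraries, 3 in each of 8 groups. Per the labels' protocols, the BrAD-seq libraries did not keep strand and were read from both ends. The submitters' processing notes name kallisto, edgeR and limma. For the transcriptome, read filtering and tool versions, the record is: not given in the sources used here. The deposited tables hold an estimated count, not normalised, and a TPM for each of 80741 contigs, with contig length and effective length in bases per the file headers.

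The rule was applied to CPM computed here from the deposited estimated counts. TPM served for comparisons of level between contigs. For tests the counts were rounded, filtered (filterByExpr by group, minimum count 10, minimum total 15), scaled with TMM and fitted with edgeR 4.0.16, with 1 mean for each of the 8 groups. Of the contigs, 53919 were tested, and the biological coefficient of variation was 0.374. Two-sided p-values were corrected over all of these contigs (Benjamini-Hochberg). SE were derived from the F statistic. The code was tested on simulated data. DESeq2 1.42.0 and limma 3.58.1 served as alternatives.

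The members and all lists and tests were chosen with earlier results of these data known. Contigs were named by position in an ordering: the largest late rises in each tissue, the highest and lowest response at 1 day, the highest TPM, the largest changes in air, the largest called tissue differences, the extremes of petiole against stem at 2 days, and the contigs at the limit of 80. Gene lists and cell type markers were not used, since contigs carry no gene names. The labels do not say whether equal replicate numbers share plants. A count of 3, the floor, was 0.0613 to 0.170 CPM, and depth limits cover counting error only.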

Additional observations from a re-analysis of the deposited data

Results flagged for a closer look

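Among the late risers named by an ordering of their values, 3 had groups in which every library under water lay below every library in air at 1 day and above every one at 2 days, so that the directions on the days were opposite. For GEMC01037709.1 this held in petioles, where the response rose by 4.78 from 1 to 2 days, and in stems, where it rose by 3.54. In stems it also held for GEMC01019658.1, with a difference of 2.91, and for GEMC01054910.1, with 2.95. The difference between the days was not tested independently, because the rule chose the contigs by it. The interaction of time and treatment was called by edgeR for GEMC01037709.1 in petioles and for GEMC01054910.1 in stems, as a description. The petiole values of GEMC01037709.1 at 1 day rest on 1 to 7 counts per library under water.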

How the results depend on the processing

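The list of 80 depended on the unit and on the replicates more than on the pseudocount. With TPM in place of CPM 47 contigs stayed in it, with a pseudocount of 0.5 or of 2 it kept 69 each, and with TMM-scaled CPM 70. Leaving out a replicate number kept 46 to 52, and leaving out 1 library 59 to 76, fewest without replicate 3 of petioles in air at 2 days. The median late rise of the list so chosen was 1.59 in stems with a pseudocount of 0.5, and 1.25 in petioles and 1.23 in stems with 2. With TMM-scaled CPM it was 1.28 in stems. Without 1 library it was 1.38 to 1.55 in petioles and 1.35 to 1.53 in stems, and without a replicate number up to 1.62 and 1.68. Read in the replicate left out alone it was 1.15, 1.01 and 1.102 in petioles and 1.08, 1.09 and 1.02 in stems, for replicates 1, 2 and 3.

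The counts of late risers called between the tissues stayed within 1.5 times under each alternative run. They were 11 to 17 higher and 15 to 22 lower in stems in air, and 6 to 8 higher and 32 to 41 lower under water. The median log2 difference in air was near 0 and changed sign, to 0.18 with library totals alone and to 0.030 under limma-voom. It was -0.062 with DESeq2's size factors, -0.069 with DESeq2, -0.069 in the fit to the 12 libraries of the treatment, in which 77 of the 80 passed the filter, and -0.20 for the list chosen on TMM-scaled CPM. Leaving out 1 library gave -0.11 to 0.017, and the sign turned in 5 of these fits, with 0.017, 0.0043, 0.0062, 0.016 and 0.013. Under water it was -0.48 with library totals alone, -0.57 under limma-voom, -0.75 for the list chosen on TMM-scaled CPM, and -0.64 to -0.49 without 1 library. The causes were not tested. The correlation of same-numbered petiole and stem libraries in their deviations from the group means ranged from -0.14 to 0.23 in air. Under water it ranged from 0.021 to 0.12, each above all correlations between unlike numbers of the same day. In air this order was absent. The labels do not say whether equal numbers share plants, and the main fit did not take them as pairs. With the replicate number as a block, 14 late risers were higher and 20 lower in stems in air, and 7 and 40 under water. Of the contigs named for a tissue difference, GEMC01028823.1 and GEMC01036907.1 lost their call in air under limma-voom, and no other call of these contigs ended.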
